A study of Mus musculus with 18 samples.

Results

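The genes described here are 10 mouse genes of coat colour and the melanosome, the organelle that makes and carries pigment: Myo5a, Tyrp1, Gpnmb, Tyr, Dct, Mitf, Pmel, Mlana, Mlph and Rab27a. Their spots were taken by gene symbol in the probe annotation of the array. That rule used no measured values, but the genes were chosen with earlier results of these data known. All 10 were on the array, on 13 of the 21765 spots used. Mitf had 4 spots and the other genes 1 each, and they were 10 of 15095 named genes and of 20218 features tested.

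The study set the mouse strain DBA/2J against C57BL/6J, both inbred, in whole brain, whole kidney and whole liver, with 6 glass arrays for each tissue and 18 in all. Every array held 1 hybridisation of both strains in a pair of dyes. Per the labels, each tissue had 1 RNA pool per strain, of 10 mice for brain and kidney and 9 for liver, and no treatment, age or sex is named. The 6 arrays of a tissue are thus repeat hybridisations, and their spread, on which each p-value rests, leaves out the spread between mice. Each value is a log2 ratio, DBA/2J over C57BL/6J, so that 1 is a doubling in DBA/2J and 0 is equality.

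Melanocytes make melanin inside melanosomes, on fibrils built from the Pmel protein, with the enzymes tyrosinase (Tyr), Tyrp1 and Dct. Mitf is the transcription factor that switches on most of these genes. Rab27a on the melanosome binds melanophilin (Mlph), which binds the motor myosin Va (Myo5a), and this chain holds melanosomes on actin at the cell edge. DBA/2J carries the dilute allele of Myo5a, a retroviral insertion in an intron that disturbs splicing, the brown allele of Tyrp1, which changes the protein, and an early stop codon in Gpnmb. Both strains are nonagouti. Myosin Va is also the motor of neurons, and Gpnmb is a glycoprotein of macrophages and of stressed lysosomes as well as of melanosomes. Brain, kidney and liver are not pigmented tissues, and the arrays measured them whole, so that fewer cells of a type and less RNA per cell cannot be told apart.

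Mitf binds the letters TCATGTG, an extended form of CATGTG, and also CACGTG. Both strands of the RefSeq promoter windows (assembly GRCm38.p6, 250 bases before to 50 after each start) were searched for these letters. The 8 genes with a window had 11 windows, and 3 of these, in 3 genes, held TCATGTG. It was found in 3.77% of all 32851 windows. CATGTG, which lies inside it, was found in 14.2% of all windows and in the same 3 genes. CACGTG was found in 7.15% of all windows and in 2 of the 11, those of Mlph and Rab27a. The stretches of 60 bases around the matches nearest the pigment enzymes and melanophilin are shown because these genes went in different directions below, with the matched letters in capitals and the gene's own strand written 5′ to 3′.
Tyrp1, chr4:80834140-80834199, plus strand: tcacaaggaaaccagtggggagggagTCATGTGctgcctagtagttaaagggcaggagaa
Tyr, chr7:87493513-87493572, minus strand: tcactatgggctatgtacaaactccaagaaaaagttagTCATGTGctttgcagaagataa
Dct, chr14:118052437-118052496, minus strand: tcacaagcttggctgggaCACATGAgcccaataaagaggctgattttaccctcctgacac
Dct, chr14:118052364-118052423, minus strand: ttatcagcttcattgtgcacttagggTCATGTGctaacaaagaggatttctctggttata
Mlph, chr1:90915026-90915085, plus strand: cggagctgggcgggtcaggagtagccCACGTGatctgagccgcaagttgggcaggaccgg
The match began 47 bases before the start in Tyrp1, 22 in Tyr, 232 (as the reverse complement, CACATGA) and 151 in Dct, and 48 in Mlph. A match is a description of the letters and no measure of binding. Under the main normalisation described below, the 3 genes that share TCATGTG did not share a direction. Tyrp1 was higher in DBA/2J kidney and liver, Dct was lower in DBA/2J brain and kidney, and Tyr passed the test in no tissue. In kidney both directions turned with median centring alone. Tyrp1 was then -0.23 (limma adjusted p = 0.141) and Dct 0.46 (limma adjusted p = 0.00109).

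The deposited ratios had the form of unnormalised data and were normalised here within each array by print-tip loess, which removes the dependence of ratio on spot intensity. That step mattered most in kidney, where the deposited ratios correlated with intensity by 0.612 to 0.705 on the 6 arrays. For this reason the kidney values below are given with those after median centring alone, called values without loess. Values with loess over the whole array, in place of each print block, and values with intensity not restored, which rest on a cruder estimate of intensity, are given where they end a call. The mean correlation between normalised arrays was highest among the kidney arrays (0.639), then the liver arrays (0.475) and the brain arrays (0.380), and brain replicate 1 was lowest at 0.242. DBA/2J RNA carried the same dye on every array, so that a dye effect of a spot and a strain difference cannot be told apart. The direction of the ratio is likely and is not stated by the labels: it rests on the order of strains and dyes there. Glo1, which is duplicated in DBA/2J, had a mean log2 ratio above 0 in each tissue (brain 0.63 ± 0.13, kidney 0.81 ± 0.34, liver 0.92 ± 0.14, SD, n = 6), and Hc, which has a defective allele in DBA/2J, had -1.10 ± 0.49 in liver. Of the measured markers of each tissue, 8 of 8 neuron markers were brightest in brain, 7 of 7 liver markers in liver and 4 of 6 kidney markers in kidney, where Aqp2 and Slc22a6 were not.

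With print-tip loess, kidney held most of the strain differences among the pigment genes. In kidney 8 of the 10 genes passed the test (limma, two-sided, Benjamini-Hochberg adjusted p below 0.05 over all 20218 features), where 41.8% of all features passed. Mlph, Tyrp1 and Mlana were higher in DBA/2J, against 21.1% of all features, and Myo5a, Gpnmb, Dct, Pmel and Mitf were lower, against 20.8%. In liver 3 of the 10 genes passed, against 23.1% of all features: Tyrp1 was higher (10.9% of all features) and Gpnmb and Mitf were lower (12.2%). In brain 1 gene, Dct, passed, against 13.1% of all features: it was lower (6.0% of all features), and none was higher (7.05%). The brain and liver shares were close to the background. The median size of the kidney log2 ratio over the 10 genes was 0.31, beside 0.16 over all features. In liver these medians were 0.18 and 0.13, and in brain 0.07 and 0.12. Without loess 5 of the 10 genes passed in kidney, where 64.9% of all features did. Of these, only Mitf kept its call and direction. Dct, Pmel and Mlana passed in the opposite direction, and Rab27a had not passed before. With loess over the whole array 6 of the 10 passed in kidney, against 33.0% of all features. With intensity not restored 4 passed, near the 33.6% of all features.

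**Figure D1:**
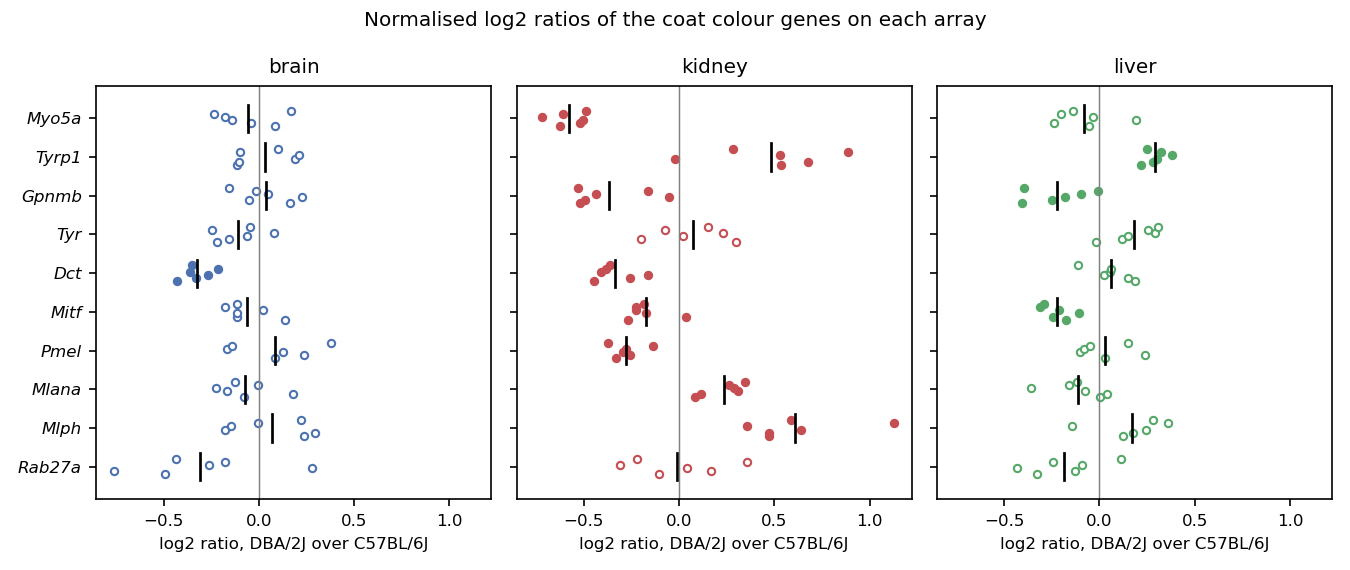
Normalised log2 ratio (DBA/2J over C57BL/6J, horizontal axis) of each of the 10 genes on each of the 6 arrays of brain, kidney and liver; each point is an array, filled where the gene passed the test in that tissue, and the black bar is the mean. In kidney all 6 Myo5a points lie between -0.72 and -0.49 and all 6 Mlph points between 0.36 and 1.13, while in brain only the Dct points are filled.

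Myo5a, the dilute gene and the myosin Va motor, was lower in DBA/2J kidney. Its log2 ratio there was -0.72 at the lowest, -0.57 at the median and -0.49 at the highest of 6 arrays. All 6 arrays lay below 0, close together. The mean was -0.58 ± 0.09 (SD, n = 6), a 1.49-fold lower value in DBA/2J (limma adjusted p = 1.82e-05). In brain, where myosin Va is a neuronal motor, the arrays ran from -0.24 through a median of -0.09 to 0.17, and the mean was -0.06 ± 0.16 (limma adjusted p = 0.659). In liver they ran from -0.24 through -0.10 to 0.19, with a mean of -0.08 ± 0.16 (limma adjusted p = 0.453). Both of these sets straddled 0. The kidney value was -0.54 with loess over the whole array and -0.48 with intensity not restored, both past the threshold, and -0.18 without loess, which was not (limma adjusted p = 0.107).

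Tyrp1, the brown gene and an enzyme of eumelanin synthesis, was higher in DBA/2J liver and kidney. In liver its log2 ratio was 0.22 at the lowest, 0.29 at the median and 0.38 at the highest array. All 6 liver arrays were above 0 within a narrow range. The mean was 0.29 ± 0.06, a 1.23-fold higher value (limma adjusted p = 0.00577). In kidney the arrays ran from -0.02 through 0.53 to 0.89, with a mean of 0.48 ± 0.32, a 1.40-fold higher value (limma adjusted p = 0.00172). One kidney array lay at about 0 and the other 5 above it. The kidney spot was among the dimmest on the array, at the 0.492 percentile of estimated intensity, against the 14.1 percentile in liver and 28.6 in brain. The kidney value was 0.29 with loess over the whole array, 0.13 with intensity not restored and -0.23 without loess, none of them past the threshold. In liver the value fell to 0.15 without loess and no longer passed (limma adjusted p = 0.194). In brain the arrays ran from -0.12 to 0.21 around a mean of 0.03 ± 0.16 (limma adjusted p = 0.829), on both sides of 0.

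Gpnmb, the glycoprotein with the early stop codon, was lower in DBA/2J kidney and liver. Its kidney arrays ran from -0.53 through a median of -0.47 to -0.05. All 6 were below 0, unevenly spread. The mean was -0.37 ± 0.21, a 1.29-fold lower value (limma adjusted p = 0.00229), and without loess it turned to 0.19, not past the threshold. In liver the arrays ran from -0.41 through -0.21 to -0.01, and the mean was -0.22 ± 0.16, a 1.17-fold lower value (limma adjusted p = 0.0431). All 6 liver arrays were below 0, but the call was lost without liver replicate 1, 2, 3, 4 or 6 (-0.19, -0.22, -0.23, -0.25 and -0.19) and under the 3 other normalisations: -0.12 with loess over the whole array, -0.15 with intensity not restored and -0.04 without loess. Brain arrays lay on both sides of 0, from -0.16 to 0.22, with a mean of 0.04 ± 0.14 (limma adjusted p = 0.786).

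Gpnmb is also a macrophage gene, and 16 of 18 macrophage markers were measured beside it. In kidney 3 were lower in DBA/2J and 2 higher: Cd14, a receptor for bacterial lipopolysaccharide, had a mean log2 ratio of -1.18 ± 0.43, the mannose receptor Mrc1 -1.13 ± 0.21 and Adgre1 -0.25 ± 0.16, while the complement gene C1qc had 0.26 ± 0.23 and Trem2 0.19 ± 0.11. In liver 3 were lower, Mrc1 at -0.60 ± 0.23, C1qa at -0.26 ± 0.23 and Cx3cr1 at -0.19 ± 0.09, and none was higher. In brain 2 were lower, Mrc1 at -0.48 ± 0.26 and Ctss at -0.33 ± 0.09. The count of 5 of 16 in kidney lay below the 41.8% of all features that passed there, and those of liver (3) and brain (2) were near 23.1% and 13.1%. These markers were named after their values were seen. Over the 16 markers, mean log2 ratios ran from -1.18 to 0.26 (kidney), -0.60 to 0.14 (liver) and -0.48 to 0.33 (brain), and the median was -0.12 in kidney, -0.06 in liver and -0.04 in brain. Their part in the Gpnmb values was not tested.

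Of the other enzymes, tyrosinase passed in no tissue and Dct in 2. Tyr, which catalyses the first step of melanin synthesis and is mutated in albino strains, had brain arrays from -0.25 through -0.11 to 0.08 and a mean of -0.11 ± 0.12 (limma adjusted p = 0.335). In kidney its arrays ran from -0.20 through 0.09 to 0.30 (mean 0.07 ± 0.19, limma adjusted p = 0.479). Both sets straddled 0. In liver 5 of 6 arrays were above 0, from -0.02 through 0.20 to 0.31, with a mean of 0.18 ± 0.12 (limma adjusted p = 0.0679). The liver value passed with loess over the whole array (0.23), with array weights (0.20) and without liver replicate 1 (0.22, limma adjusted p = 0.0498).

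Dct, or dopachrome tautomerase, the enzyme that converts dopachrome, was lower in DBA/2J brain and kidney by a like amount. In brain its log2 ratio was -0.43 at the lowest, -0.34 at the median and -0.21 at the highest array. In kidney it was -0.45, -0.37 and -0.16. All 12 of these arrays lay below 0. The brain mean was -0.32 ± 0.08 (1.25-fold lower, limma adjusted p = 0.0101) and the kidney mean -0.34 ± 0.11 (1.26-fold lower, limma adjusted p = 0.00117). In liver the arrays lay on both sides of 0, from -0.11 through 0.06 to 0.19, with a mean of 0.06 ± 0.10 (limma adjusted p = 0.531). The brain value fell to -0.19 with intensity not restored and no longer passed (limma adjusted p = 0.127). The kidney value turned to 0.46 without loess, past the threshold in the opposite direction (limma adjusted p = 0.00109).

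Pmel and Mlana are melanosome proteins that are not enzymes: Pmel forms the fibrils on which melanin is laid down, and Mlana binds Pmel and is a marker of melanocytes. Pmel was lower in DBA/2J kidney, with arrays from -0.37 through -0.28 to -0.14, all below 0. The mean was -0.28 ± 0.08, a 1.21-fold lower value (limma adjusted p = 0.00322). Without loess it turned to 0.67, past the threshold the other way, and with intensity not restored it was -0.21 and did not pass. The kidney spot was bright, at the 99.2 percentile. In brain its arrays ran from -0.17 to 0.38 (mean 0.09 ± 0.21, limma adjusted p = 0.531) and in liver from -0.10 to 0.24 (mean 0.03 ± 0.14, limma adjusted p = 0.780), in both on each side of 0.

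Mlana was higher in DBA/2J kidney, where its arrays ran from 0.08 through 0.28 to 0.35 and all lay above 0. The mean was 0.23 ± 0.11, a 1.18-fold higher value (limma adjusted p = 0.0114). This direction depended on the normalisation: the value was -0.07 with loess over the whole array, 0.06 with intensity not restored, neither past the threshold, and -0.46 without loess, past it. Brain arrays ran from -0.22 to 0.18 (mean -0.07 ± 0.14, limma adjusted p = 0.566) and liver arrays from -0.36 to 0.04 (mean -0.11 ± 0.14, limma adjusted p = 0.265). Each of these sets held values on both sides of 0.

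Mlph and Rab27a encode the links between melanosome and motor, and are mutated in the leaden and ashen mice that share the pale coat of dilute mice. Mlph was higher in DBA/2J kidney, the tissue in which Myo5a was lower. Its kidney arrays ran from 0.36 through 0.53 to 1.13, and the mean was 0.61 ± 0.27, a 1.53-fold higher value (limma adjusted p = 0.000174). All 6 arrays were above 0, with replicate 5 apart from the others at 1.13, and without it the mean was 0.51 and still passed. With loess over the whole array the value was 0.58, past the threshold. It was 0.25 with intensity not restored and 0.06 without loess, and passed in neither. In brain Mlph had -0.18, 0.11 and 0.29 as lowest, median and highest array (mean 0.07 ± 0.21, limma adjusted p = 0.612). In liver it had -0.14, 0.21 and 0.36 (mean 0.17 ± 0.18, limma adjusted p = 0.115). The arrays of these tissues lay on both sides of 0.

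Rab27a, the GTPase of the same chain, passed in no tissue. Its brain arrays were the most scattered of the 10 genes, from -0.76 through -0.35 to 0.28, with a mean of -0.31 ± 0.35 (limma adjusted p = 0.0864). Brain replicate 3 was the array above 0, and without it the mean was -0.43 and passed (limma adjusted p = 0.0191). It also passed, at the same mean, when all 18 arrays shared 1 estimate of spread. Kidney arrays ran from -0.31 through -0.03 to 0.36 (mean -0.01 ± 0.25, limma adjusted p = 0.918), and liver arrays from -0.43 through -0.19 to 0.11 (mean -0.19 ± 0.19, limma adjusted p = 0.104). Without loess the kidney value was -0.35 and passed.

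Mitf, the transcription factor of the melanocyte lineage, also has isoforms in other cell types. Averaged over its 4 spots, it was lower in DBA/2J liver, with arrays from -0.31 through -0.23 to -0.11, all below 0. The liver mean was -0.22 ± 0.08 (1.17-fold lower, limma adjusted p = 0.0226). In kidney the arrays ran from -0.27 through -0.20 to 0.04, with only replicate 2 above 0, and the mean was -0.17 ± 0.11 (1.13-fold lower, limma adjusted p = 0.0464). The direction held in both tissues under all 4 normalisations, with -0.33 in liver and -0.62 in kidney without loess. The calls were less steady: in kidney the adjusted p rose above the threshold without replicate 1, 3, 4, 5 or 6 (means of -0.15, -0.17, -0.16, -0.16 and -0.17) and in liver without replicate 4 or 6 (-0.23 and -0.21). In brain the arrays ran from -0.18 to 0.14 on both sides of 0 (mean -0.06 ± 0.12, limma adjusted p = 0.616).

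The 4 Mitf spots differed from each other in kidney. Fitted as features of their own, the first had a kidney mean of -0.37 ± 0.21 and the fourth -0.28 ± 0.19, both past the threshold (limma adjusted p = 0.00232 and 0.0109). The second had -0.20 ± 0.26 and the third 0.15 ± 0.40, which did not pass. In liver all 4 spots had means below 0, from -0.31 to -0.15, and the first and the second passed (limma adjusted p = 0.0174 and 0.0129). In brain they had means from -0.11 to -0.02, and none passed. The third spot was dim in kidney, at the 1.59 percentile, and its kidney arrays ran from -0.37 to 0.78. The second spot, which passed in liver, was dim in that tissue, at the 1.11 percentile. Which transcripts each spot detects was not analysed here.

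**Figure D2:**
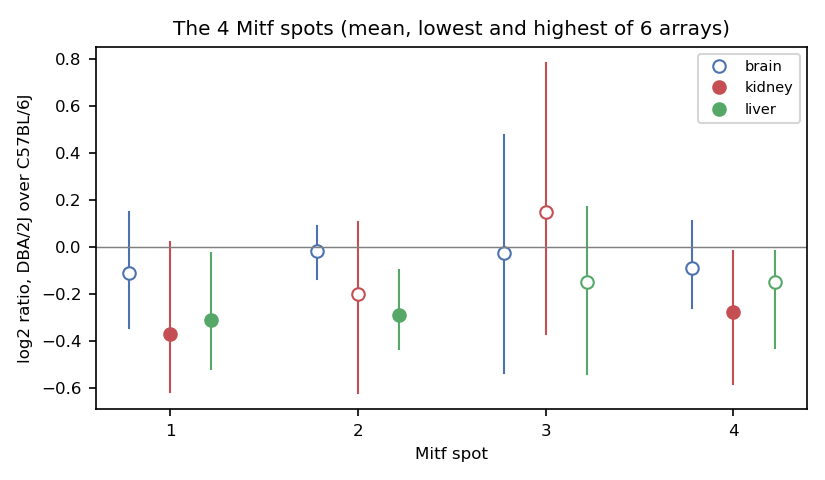
Log2 ratio (DBA/2J over C57BL/6J, vertical axis) of each of the 4 Mitf spots in brain, kidney and liver; points are means of 6 arrays, filled where that spot passed the test, and lines run from the lowest to the highest array. The liver means lie between -0.31 and -0.15 on all 4 spots, while the kidney mean of the third spot, 0.15, lies above 0.

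The tissues were then compared with each other in 1 limma fit of all 18 arrays, which tests whether a strain difference itself differs. Between kidney and brain 6 of the 10 genes passed, against 23.7% of all features. Between kidney and liver 5 passed, against 20.0%, and between liver and brain 1, against 7.32%. For Myo5a the kidney ratio was 0.52 log2 units below brain (difference -0.52 ± 0.10, SE, limma adjusted p = 0.000416) and 0.50 below liver (difference -0.50 ± 0.10, limma adjusted p = 0.000612). Its highest kidney array lay below its lowest array in either of the other tissues. Mlph showed the opposite, with differences of 0.54 ± 0.12 to brain (limma adjusted p = 0.00295) and 0.44 ± 0.12 to liver (limma adjusted p = 0.0143). Its kidney and brain arrays did not overlap. Its highest liver array, 0.36, just overlapped its lowest kidney array.

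Dct set liver apart from both other tissues. Its liver ratio was 0.39 ± 0.08 above that in brain (SE, limma adjusted p = 0.00473), and its kidney ratio was below that in liver by a difference of -0.40 ± 0.08 (limma adjusted p = 0.00166). The liver arrays did not overlap those of brain or kidney. Between kidney and brain the Dct difference was -0.01 ± 0.08 (limma adjusted p = 0.930). Pmel had kidney differences of -0.36 ± 0.10 to brain (limma adjusted p = 0.0108) and -0.31 ± 0.10 to liver (limma adjusted p = 0.0311). Mlana had kidney differences of 0.30 ± 0.09 to brain (limma adjusted p = 0.0212) and 0.35 ± 0.09 to liver (limma adjusted p = 0.0109). Kidney and liver arrays did not overlap for either gene. The share of all features whose arrays do not overlap between tissues is not given here. The Pmel difference to liver no longer passed without kidney replicate 1, 4 or 6 or liver replicate 1, 2 or 6, with values from -0.31 to -0.27.

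For Tyrp1 the kidney ratio exceeded that in brain by 0.45 ± 0.12 (SE, limma adjusted p = 0.00757), with overlapping arrays, and for Gpnmb the kidney difference to brain was -0.40 ± 0.11 (limma adjusted p = 0.00792). The liver to brain differences of these genes, 0.26 ± 0.12 and -0.26 ± 0.11, did not pass (limma adjusted p = 0.194 and 0.150), although liver passed against 0 and brain did not. Tyr, Mitf and Rab27a passed in no comparison of tissues under the main normalisation with all arrays. Between kidney and brain, Mitf passed without loess (-0.39, limma adjusted p = 0.0145). Rab27a passed there without brain replicate 3 (0.41, limma adjusted p = 0.0242). Without loess the kidney differences turned in sign for Dct (0.76 to brain and 0.35 to liver), Pmel (0.43 and 0.58) and Mlana (-0.18 and -0.38). Those of Dct and Pmel passed in the turned direction, and those of Mlana did not pass. The kidney differences also turned for Gpnmb and Tyrp1 against brain (0.07 and -0.03) and for Mlph against liver (-0.06), and did not pass. Those of Myo5a kept their sign without loess, at -0.25 to brain and -0.17 to liver, and did not pass. That of Mlph to brain (0.11) did not pass either. Every kidney call between tissues was thus lost or turned without loess. The Dct difference between liver and brain (0.41) did not pass. With loess over the whole array, the kidney to brain calls of Tyrp1, Gpnmb and Mlana, the kidney to liver calls of Dct, Mlana and Pmel and the liver to brain call of Dct were lost. With intensity not restored, the kidney to brain calls of Tyrp1, Gpnmb, Mlana and Mlph, the kidney to liver calls of Mlana, Mlph and Pmel and again the liver to brain call of Dct were lost. The Myo5a calls held in both.

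**Figure D3:**
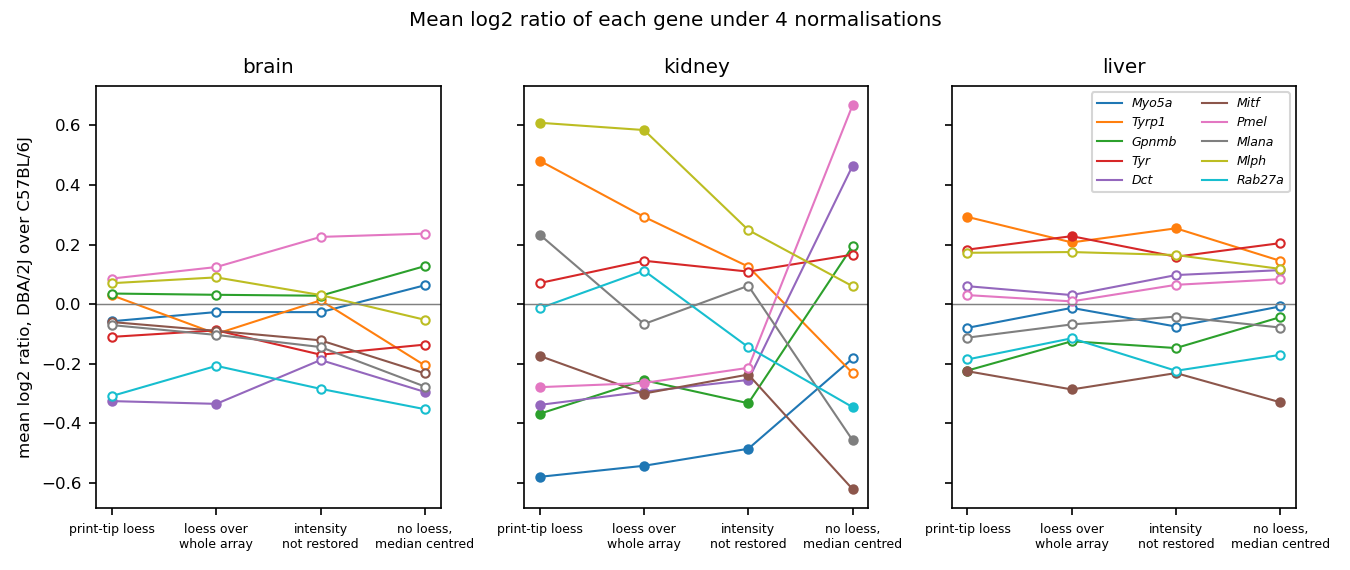
Mean log2 ratio (DBA/2J over C57BL/6J, vertical axis) of each of the 10 genes under 4 normalisations (horizontal axis) in brain, kidney and liver; each point is a mean of 6 arrays, filled where the gene passed the test. In liver all 10 genes kept 1 sign under the 4 normalisations and in brain 7 did, while in kidney 4 did (Myo5a, Mitf, Mlph and Tyr), and Pmel went from -0.28 to 0.67.

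How bright each spot was could be estimated from the same files, as log2 intensity over the median of the array, both strains together. The estimate is compared here for the same spot between tissues and not between genes. The Pmel spot was brightest in kidney, at 4.53 ± 0.38 (SD, n = 6), followed by liver at 3.60 ± 0.95 and brain at 1.36 ± 0.06. Kidney and liver overlapped within these SDs, and brain had the lowest mean. Dct had the same order, with 2.69 ± 0.28 in kidney, 2.05 ± 0.55 in liver and 0.39 ± 0.09 in brain. Among all spots the Pmel spot stood at the 99.2 percentile in kidney and the 97.6 in liver, and the Dct spot at 95.4 and 91.6. The spot intensity does not show whether the signal came from the named transcript, which was not tested.

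Gpnmb was brightest in liver, at 1.59 ± 0.28, with 1.15 ± 0.17 in kidney and 1.05 ± 0.57 in brain, and neighbouring tissues overlapped within their spread. Myo5a was at 0.94 ± 0.26 in brain and 0.88 ± 0.26 in kidney, which did not differ beyond their spread, and at 0.21 ± 0.18 in liver. Tyrp1 was below the array median in each tissue, at -0.60 ± 0.28 in brain, -0.71 ± 0.50 in liver and -1.84 ± 0.31 in kidney. Mlana was dimmest in liver, at the 0.689 percentile. Mlph, Rab27a and the 4 Mitf spots lay below the array median in all 3 tissues, except the first Mitf spot in kidney, at 0.04 ± 0.16. Tyr lay near the median, between the 40.3 and 53.8 percentile.

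**Figure D4:**
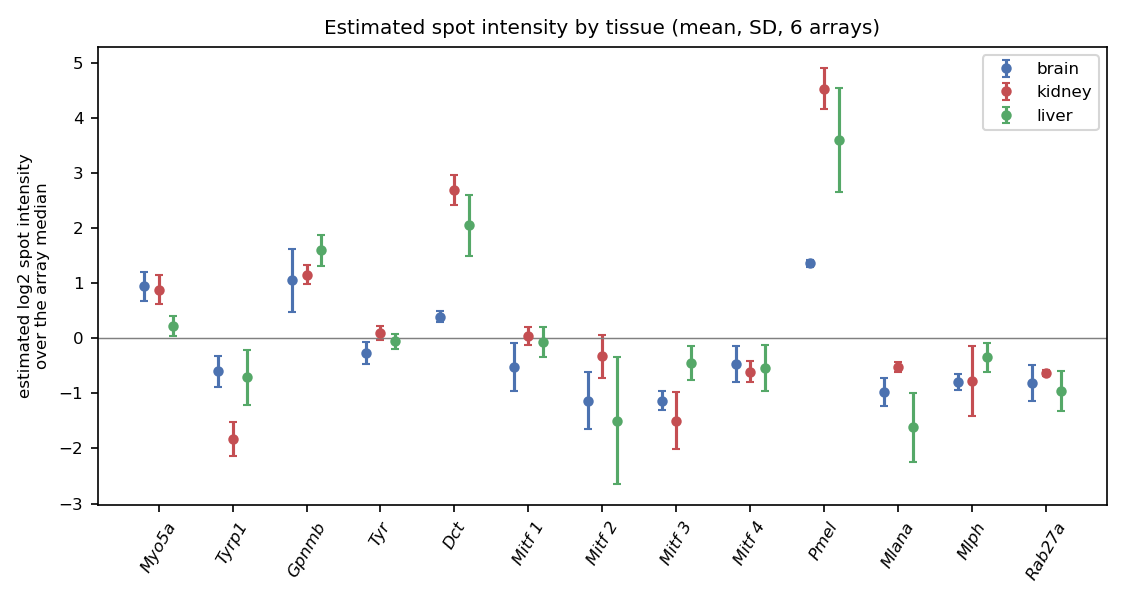
Estimated log2 spot intensity over the array median (vertical axis) for each of the 13 spots in brain, kidney and liver. Points are means and bars SDs of 6 arrays, whose estimates are not independent. Pmel stands at 4.53 in kidney against 1.36 in brain, and Tyrp1 at -1.84 in kidney against -0.60 in brain.

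The genes that lie next to those with a known DBA/2J allele were read for the same ratios, 3 measured protein-coding neighbours on each side. Around Myo5a in kidney, 3 of the 6 neighbours were lower in DBA/2J and none higher: the phosphoprotein gene Arpp19 at -0.40 ± 0.17, the transcription factor gene Onecut1 at -0.38 ± 0.09 and the G protein subunit gene Gnb5 at -0.32 ± 0.07 (SD, n = 6). In kidney 41.8% of all features passed, so that 3 of 6 is near the background. All 6 neighbours had kidney means below 0, from -0.40 to -0.12, each smaller in size than that of Myo5a. The kidney median over all features was 0.0018, and how often 6 neighbouring genes share a sign was not tested. Without loess Arpp19 turned to 0.37, Onecut1 to 0.22 and Rsl24d1 to 0.57, all past the threshold, and Gnb5 was -0.04. The direction around Myo5a thus depended on the normalisation. With intensity not restored Arpp19 (-0.22), Onecut1 (-0.26) and Gnb5 (-0.14) did not pass, and with loess over the whole array Gnb5 did not (-0.14). In liver Onecut1 was lower (-0.29 ± 0.17) and Arpp19 higher (0.24 ± 0.15), and in brain Onecut1 was lower (-0.31 ± 0.21). The brain call of Onecut1 was lost without loess (-0.23), with loess over the whole array (-0.28) and without brain replicate 1, 3, 4, 5 or 6 (-0.33 to -0.25). In liver the Onecut1 call was lost without loess (-0.23) and without replicate 3 or 6 (-0.27 and -0.25). The liver Arpp19 call was lost without loess (0.24), with loess over the whole array (0.16) and without replicate 1, 4, 5 or 6 (0.20 to 0.23).

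Of the 6 neighbours of Tyrp1, Lurap1l was higher in kidney (0.29 ± 0.19) and the phosphatase gene Ptprd lower in liver (-0.31 ± 0.09), and none passed in brain. Lurap1l was -0.05 without loess and 0.17 with loess over the whole array, and passed in neither. Of the 6 neighbours of Gpnmb, Tmem176b was higher in kidney (0.23 ± 0.16) and Malsu1 higher in brain (0.44 ± 0.35). In liver the splicing factor gene Tra2a was lower (-0.79 ± 0.36) and the RNA-binding protein gene Igf2bp3 higher (0.22 ± 0.18). The Tmem176b call was lost without kidney replicate 3 (0.17), the Malsu1 call without brain replicate 4 or 6 (0.37 and 0.44), and the Igf2bp3 call without liver replicate 1, 2, 3, 4, 5 or 6 in turn (0.15 to 0.25). Under the 3 other normalisations Malsu1 (0.08 to 0.29) and Igf2bp3 (0.08 to 0.24) did not pass either. No neighbour of Gpnmb passed as lower in kidney, where Gpnmb did. Kidney means were nevertheless below 0 for Aoc1 (-0.16), Igf2bp3 (-0.13), Malsu1 (-0.06), Tmem176a (-0.05) and Tra2a (-0.02). With loess over the whole array Igf2bp3 passed as lower in kidney (-0.37).

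**Figure D5:**
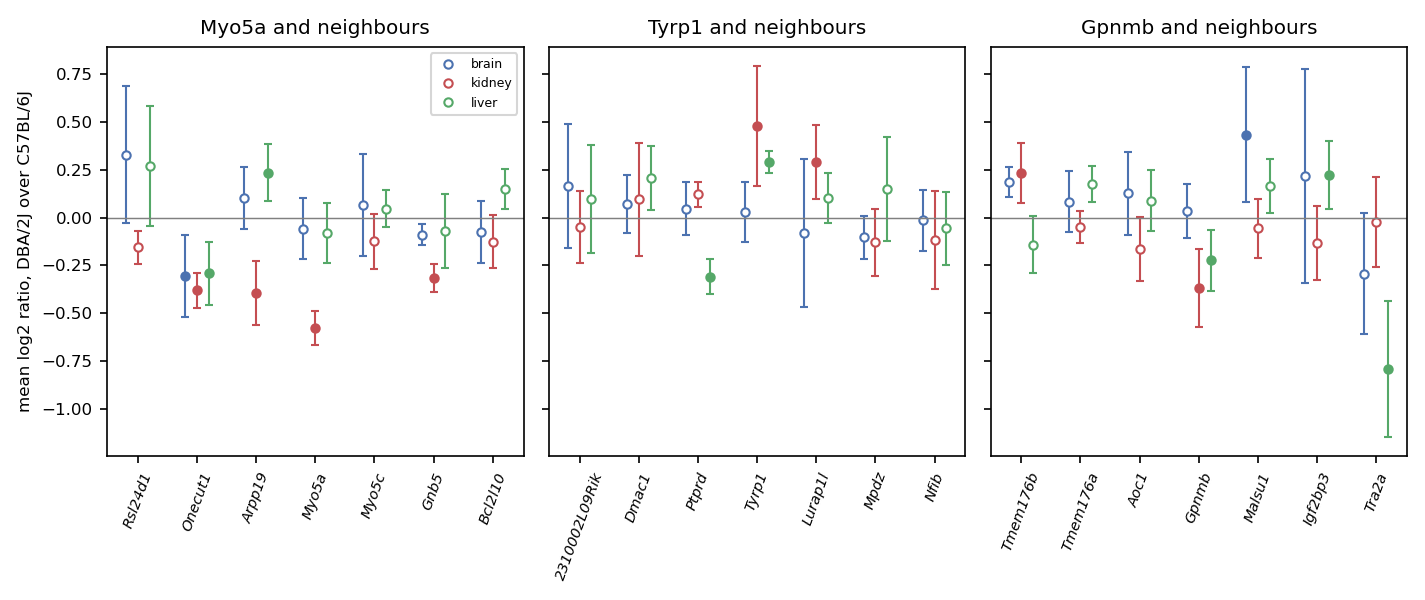
Mean log2 ratio (DBA/2J over C57BL/6J, vertical axis) of Myo5a, Tyrp1 and Gpnmb and of the 3 nearest measured genes on each side, in order along the chromosome (horizontal axis, not to scale); bars are SDs of 6 arrays and filled points passed the test. Around Myo5a the kidney means run from -0.58 at Myo5a itself to -0.12 at Myo5c.

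Further genes of pigment biology were read from 4 lists. Of the melanosome transporters and channels, 5 of 8 were measured: in kidney 2 were higher and 1 lower in DBA/2J, with none past the threshold in brain or liver. The kidney count of 3 of 5 stands beside 41.8% of all features. Gpr143, the melanosome receptor mutated in ocular albinism, was higher in kidney on all 6 arrays, from 0.66 through 1.09 to 1.43, with a mean of 1.05 ± 0.27, a 2.07-fold higher value (limma adjusted p = 2.5e-06). It was 1.83 without loess. Atp7a, the copper pump that supplies tyrosinase, was at 0.48 ± 0.15 in kidney, on a dim spot (7.59 percentile of estimated intensity), and at -0.03 without loess and 0.12 with intensity not restored, past the threshold in neither. The third was the cystine transporter Slc7a11, at -0.23 ± 0.22 with 1 array above 0, named after its value was seen. Its kidney spot was dimmer still (1.43 percentile). At an unadjusted p under 0.05, limma had 1 of the 5 in brain and 1 in liver. The kidney median of the 5 was 0.06, with -0.10 in brain and -0.01 in liver, beside a median of all features within 0.01 of 0 in each tissue.

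Of 22 genes of lysosome-related organelle assembly, whose loss gives Hermansky-Pudlak syndrome in several cases, 18 were measured. In kidney 4 were higher and 3 lower, in liver none was higher and 4 were lower, and in brain none passed (2 at an unadjusted p under 0.05 in limma). The kidney and liver counts, 7 and 4 of 18, were at the background of 41.8% and 23.1% of all features. Hps4 was higher in kidney, from 0.21 through 0.40 to 0.50 (mean 0.38 ± 0.11, limma adjusted p = 0.000535), and lower in liver, from -1.02 through -0.59 to -0.49 (mean -0.68 ± 0.22, limma adjusted p = 0.000229). The 6 kidney arrays lay above 0 and the 6 liver arrays below it, and the difference itself was not tested. The Hps4 kidney value was 1.18 without loess, and the liver value was -0.34 with intensity not restored and did not pass. The adaptor subunit gene Ap3d1 was lower in kidney (-0.54 ± 0.30) and liver (-0.28 ± 0.18). It did not pass in kidney without loess (-0.10) or with intensity not restored, nor in liver with intensity not restored (-0.24) or without replicate 4 (-0.29). Bloc1s4 was higher in kidney (0.48 ± 0.25) on a dim spot (3.40 percentile), which did not pass without loess (0.06) or with intensity not restored (0.23), and Bloc1s6 was lower in liver (-0.27 ± 0.10). The medians of the 18 lay within 0.05 of 0 in all 3 tissues.

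Of 17 motor and Rab effector genes, 11 were measured. In each of brain and kidney 1 was higher and 1 lower, and in liver 1 was lower. That is 2 of 11 in kidney, where 41.8% of all features passed, 1 of 11 in liver (23.1% of all features) and 2 of 11 in brain (13.1%). In kidney the dynein light chain gene Dynll1, whose product also binds myosin Va, was higher (0.23 ± 0.14), a call lost with loess over the whole array (0.22) and without kidney replicate 2 or 5 (0.21 and 0.19). Rab27b, the close relative of Rab27a, was lower in kidney (-0.23 ± 0.14), a call lost without kidney replicate 1 or 2 (-0.21 and -0.18), and in liver (-0.31 ± 0.14), where it did not pass with loess over the whole array (-0.20). The medians of the 11 lay between 0.01 and 0.04. The brain genes, Dynll1 at 0.38 ± 0.24 and Sytl2 at -0.29 ± 0.18, were named after their values were seen.

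All 14 genes of pigment signals and transcription factors were measured, and in kidney 5 were higher and 5 lower, where 41.8% of all features passed. Tfap2a, a transcription factor of the neural crest, was lower in all 3 tissues on all arrays. Its means were -0.47 ± 0.26 (brain), -0.41 ± 0.14 (kidney) and -0.33 ± 0.15 (liver), with limma adjusted p-values of 0.00827, 0.000445 and 0.00684. Its spot was dim, at the 7.46, 25.2 and 10.6 percentile in brain, kidney and liver, and the gene count of this list in brain and in liver was 0 once the dimmest 25% of features were left out. It was the only gene of this list past the threshold in brain or liver. Tfec, a relative of Mitf, was higher in kidney (0.36 ± 0.16), and Pax3, which acts upstream of Mitf, was lower there (-0.29 ± 0.21) on a dim spot (3.33 percentile). Pax3 did not pass with loess over the whole array (-0.22) or in 1 fit of all 18 arrays. The median of the 14 was 0.07 in kidney, 0.01 in liver and -0.07 in brain.

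The named genes whose ratios followed those of the 3 genes with known alleles most closely over the 18 arrays were listed by Pearson's r, as a description. For Myo5a they were Samd9l (r = 0.921), Cd244a (0.906) and Npffr2 (0.904), with kidney means of -0.68, -0.64 and -1.04. For Tyrp1 they were Snap29 (0.913), Map3k20 (0.884) and Tprkb (0.874), with kidney means of 0.18, 0.25 and 0.27. For Gpnmb they were Ckap2l (0.847), Hars (0.837) and Lhfpl4 (0.837), with kidney means of -0.08, 0.11 and -0.68, so that Hars lay on the other side of 0 from Gpnmb. The 18 points share arrays and pools and fall into 3 tissues, so that a difference between tissues raises r.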

How the data were processed

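The labels name Spot for image analysis and print-tip lowess in limma for normalisation, with no versions. The authors deposited 1 log2 ratio per spot and array. All deposited log2 values of the 21765 spots used were ratios of 2 whole numbers (tolerance 1e-12), array medians ran from -1.65 to 0.16 and their correlation with intensity reached 0.705, so they were treated as unnormalised. Another 1275 of the 23040 spots, at 0 on every array, were left out. The whole numbers were recovered by continued fractions up to 65535, and a common factor was estimated from the other arrays (assumed SD 0.4, log2), which gave the intensities. Ratios were normalised by print-tip loess in limma 3.58.1 (R 4.3.3; span 0.3, 4 iterations, 48 blocks of 480 spots). "Intensity not restored" leaves that factor out.

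Symbols came from the platform annotation, updated by Entrez identifier through a RefSeq table (GRCm38.p6), which matched 15964 spots. Of the spots used, 16642 had 1 symbol, 134 several and 4989 none. Spots of a gene were averaged. Each tissue was fitted alone with lmFit and eBayes against 0, and tissues were compared in 1 fit of 18 arrays. P-values were adjusted by Benjamini-Hochberg over 20218 features with a threshold of 0.05. Array depth is not a count here, and the number of arrays limits the precision. On simulated arrays of 20218 features, a true log2 size of 0.3 was called for 37.3% of changed features (kidney), 25.4% (liver) and 11.9% (brain), and a size of 1 for 98.5%, 98.5% and 90.9%. Only 67 features were changed at size 0.3 and 66 at size 1. The adjusted threshold is stricter with so few changes, so these shares do not carry over to the real arrays.

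The genes and lists were chosen with earlier results of these data known. Named by rule were all 10 genes and their spots, up to 3 genes of each list and tissue with the largest mean past the threshold and 1 sign on all 6 arrays, 3 neighbours on each side and the 3 most alike genes of Myo5a, Tyrp1 and Gpnmb, and Glo1 and Hc. Others are marked in the text. Alternatives were median centring without loess, loess over the whole array, intensity not restored, scaling between arrays, leaving out the dimmest 25% of features, spots as features, array weights, other sets of arrays in the fit, a replicate block and leaving out each array. Pmel and Mlana have no promoter window shown.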

Additional observations from a re-analysis of the deposited data

Results flagged for a closer look

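Of 106 groups of 6 arrays (a gene in a tissue), 6 had 1 array far from the other 5 by Dixon's test, and chance gives about 1 in 20. Mlph had 1.13 on kidney replicate 5, where the others lay between 0.36 and 0.64, and Mitf had 0.037 on kidney replicate 2, where the others lay between -0.27 and -0.17. Among the neighbours, Bcl2l10 had -0.40 on kidney replicate 1 (others -0.15 to -0.03), Igf2bp3 0.58 on liver replicate 1 (others 0.10 to 0.19) and Tmem176b 0.54 on kidney replicate 3 (others 0.10 to 0.26). Hc, one of the genes read for the direction, had -0.15 on liver replicate 2 (others -1.45 to -0.97).

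With print-tip loess, the strain difference itself differed between tissues, by limma's contrast, in 12 cases. The kidney ratio minus the brain ratio was -0.52 for Myo5a, 0.45 for Tyrp1, -0.40 for Gpnmb, -0.36 for Pmel, 0.30 for Mlana and 0.54 for Mlph. The kidney ratio minus the liver ratio was -0.50 for Myo5a, -0.40 for Dct, -0.31 for Pmel, 0.35 for Mlana and 0.44 for Mlph. The liver ratio minus the brain ratio was 0.39 for Dct.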

How the results depend on the processing

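Of 1014 values and tissue differences of the 10 genes under other settings, 942 kept their direction and side of the threshold or failed it in both, 49 lost the call, 8 gained it and 15 reversed, and 35 of the first group changed sign with neither value past the threshold. Without loess, 5 genes passed in kidney (8 before), 1 in liver (3), 3 between kidney and brain (6), none between liver and brain (1) and 2 between kidney and liver (5). The shares of all features that passed there were 64.9%, 24.9%, 35.2%, 4.11% and 45.9% in the same order. Mitf was the only gene that kept its kidney call in the same direction, and no call between tissues was kept. Kidney values past the threshold with or without loess that turned were Dct 0.46, Gpnmb 0.19, Mlana -0.46, Pmel 0.67, Tyrp1 -0.23, Arpp19 0.37, Atp7a -0.027, Lurap1l -0.049, Onecut1 0.22, Rsl24d1 0.57, Tmem176a 0.74 and Tra2a 0.82. The kidney differences to brain that turned were Dct 0.76, Gpnmb 0.067, Mlana -0.18, Pmel 0.43 and Tyrp1 -0.026, and those to liver Dct 0.35, Mlana -0.38, Mlph -0.058 and Pmel 0.58. With loess over the whole array Mlana turned to -0.066 in kidney, and 3, 0 and 2 genes passed in the tissue differences (kidney and brain, liver and brain, kidney and liver). Of all features 18.2%, 4.33% and 14.7% passed in these differences. With intensity not restored none passed in brain (1), 4 in kidney, and 2, 0 and 2 in the differences. The shares of all features were 12.9% in brain and 15.3%, 3.83% and 18.8% in the differences. The kidney count of 4 of 10 is then near the 33.6% of all features that passed. The cause was not tested. Without the dimmest 25% of features, 5 of the 10 genes were tested: 4 passed in kidney (39.7% of all features) and 1 in liver (24.3%). Tyrp1, Mlph and Mlana, the genes higher in kidney, and Mitf, lower in kidney and liver, were among those left out. In the differences 3 and 3 passed between kidney and brain and kidney and liver (26.8% and 23.0% of all features). In 1 fit of 18 arrays 2 of the 10 genes passed in brain (19.9% of all features). Where none passed, limma had 2 to 3 genes at an unadjusted p under 0.05.

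Leaving out each array gave 1 to 2 genes in brain, 7 to 8 in kidney, 1 to 3 in liver, 6 to 7 between kidney and brain, 1 between liver and brain and 4 to 5 between kidney and liver. Same-numbered arrays of different tissues correlated by -0.24 to 0.16 and not every array correlated best with its own number, so the numbers were not taken to pair the samples. With the replicate number as a block the counts stayed at 6, 1 and 5. Small ratios are limited by the spread of 6 arrays: a log2 size of 0.3 was called for 11.9% of changed features in the brain simulation. Far fewer features were changed there than passed in these data, which makes the adjusted threshold stricter, so this share does not carry over to them.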

Other observations

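Red cell markers, which no comparison above used, were measured for 2 of 5 genes. Hba-a1, an alpha globin gene, had mean log2 ratios of -0.54 ± 0.41 in brain and -0.69 ± 0.26 in kidney (SD, n = 6, limma adjusted p = 0.0160 and 5.46e-05), while the other, Alas2, an enzyme of haem synthesis in red cells, was at -0.05 ± 0.20 and -0.15 ± 0.14 and passed in neither (limma adjusted p = 0.701 and 0.0983). Neither gene passed in liver, where Alas2 was at 0.21 ± 0.20 (1 at an unadjusted p under 0.05).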
